A study of Mus musculus with 2 samples.

Results

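Imprinted genes of the growth network were followed in the embryonic mouse ureter, by name, with every probe that the array design assigns to them. Of 34 named genes, 33 had at least 1 probe, and these genes had 59 of the 39429 probes on each array. Of the 59 probes 56 passed the filter on dim probes, which left 32 imprinted genes among the 21097 genes tested. Rian had no probe under its name. The only probe of Rtl1 was not well above background in either genotype on either array, so Rtl1 was not tested. Of the 32 tested genes, 19 are known as paternally expressed, 12 as maternally expressed, and Gnas gives transcripts of both kinds. These classes come from general knowledge of the genes, mostly from other tissues, and the arrays do not tell the parental copies apart.

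An imprinted gene is read mainly from the copy inherited from a single parent, under the control of a nearby region that carries a parental methylation mark. Many imprinted genes act on growth before birth: Igf2, a growth factor, is read from the paternal copy, whereas Igf2r, the receptor that removes it, and Grb10, an adaptor that dampens insulin and IGF receptors, are read from the maternal copy in most tissues. A subset of them is known to be expressed together at a high level in embryonic mesenchyme and to decline as tissues mature.

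The 2 two-colour arrays compared Tbx2-GOF with control ureters of male NMRI embryos at stage E13.5. Tbx2-GOF embryos were Tbx18(cre/+);Hprt(Tbx2/Y) and control embryos were Tbx18(+/+);Hprt(Tbx2/Y). Both genotypes thus carried the allele that places Tbx2, the gene of a T-box transcriptional repressor, at the X-linked Hprt locus, and the Tbx2-GOF embryos alone also carried cre in place at a Tbx18 allele, so that they also had fewer normal Tbx18 copies. Cre was thus limited to cells that express Tbx18, in the ureter its mesenchyme, whereas the arrays measured the whole dissected ureter. Each array held 1 extract of each genotype, with Tbx2-GOF in red (AlexaFluor647) on array 1 and in green (AlexaFluor555) on array 2. Values below are log2 ratios, Tbx2-GOF over control, for array 1 and then array 2; above 0 the Tbx2-GOF signal was the brighter, and a mean is given ± SD over n = 2 arrays. Whether the extracts came from separate embryos is not given in the labels, so p-values cover only the spread of 2 arrays, which may be a technical one. In whole ureters, fewer cells of a type and less RNA per cell cannot be told apart.

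"Rose" and "fell" are kept for genes past limma's moderated test with a Benjamini-Hochberg adjusted p below 0.05 over all 21097 genes. The test called 135 of them, or 0.64%, with 76 higher in Tbx2-GOF (0.36%) and 59 lower (0.28%). All 8 markers of the ureteric mesenchyme and all 10 of the urothelium were well above background. The Tbx2 probe read 0.04 and 0.56 (mean 0.30 ± 0.37, adjusted p = 0.711). The sources used here do not say whether the inserted allele contains the probed sequence, so this value checks nothing. Hprt, the locus of the inserted allele, read 1.27 and 0.56 (adjusted p = 0.0989 by limma). Tbx18 read -0.31 and -0.59 (adjusted p = 0.266 by limma). Neither gene passed the test, and the cause of these values was not tested. Markers of neighbouring tissues differed between the genotypes: 4 of 13 skeletal muscle and 5 of 9 foetal liver markers fell, and 2 of 13 neural and Schwann cell markers rose.

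Probe sequences are shown here for non-coding RNAs that were measured at several places. These are Kcnq1ot1, an RNA that silences its neighbours on the paternal chromosome, and Meg3 and Mirg, in the maternally expressed RNA cluster beside Dlk1. H19, also non-coding with more than 1 probe, is described below without its sequences. The 60-base probes are given 5′ to 3′ as in the array files, in lower case throughout. Coordinates are those of the files, on mm9.
Kcnq1ot1 bright probe, chr7:150440140-150440199, minus strand: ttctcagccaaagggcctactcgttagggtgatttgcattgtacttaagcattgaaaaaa
Kcnq1ot1 dimmer probe, chr7:150434020-150434079, minus strand: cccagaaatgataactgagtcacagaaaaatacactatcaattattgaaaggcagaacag
Mirg bright probe, chr12:110987569-110987628, plus strand: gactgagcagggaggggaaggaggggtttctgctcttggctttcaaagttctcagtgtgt
Mirg dimmer probe, chr12:110979653-110979712, plus strand: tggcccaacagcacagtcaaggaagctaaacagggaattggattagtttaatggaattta
Meg3 bright probe, chr12:110809678-110809737, plus strand: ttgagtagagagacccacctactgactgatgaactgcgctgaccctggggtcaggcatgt
Meg3 dimmer probe, chr12:110799558-110799617, plus strand: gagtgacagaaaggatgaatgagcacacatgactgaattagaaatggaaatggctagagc
The longest run of letters that 2 of these probes of the same gene share is 7 bases, so each reads its own stretch of RNA. Both Kcnq1ot1 probes and both Mirg probes were lower in Tbx2-GOF on both arrays, whereas the 2 Meg3 probes shown were higher on array 2 than on array 1.

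Most genes of the imprinted network were within 1.5-fold of equality on both arrays, but a smaller share of them than of all genes. None of the 32 genes rose and 1, Rasgrf1, fell, beside 0.64% of all genes called in either direction. By limma's unadjusted p below 0.05, 8 of the 32 (25%) stood out, 5 higher and 3 lower, beside 1970 of all genes (9.34%; 5.63% higher and 3.71% lower). On both arrays 26 of the 32 genes (81.2%) were within 1.5-fold of equality, beside 92.1% of all genes. The median over the 32 genes was 0.04, and -0.00 over all genes. The signs of the 2 arrays matched for 17 of the 32 (53.1%), 9 higher and 8 lower, beside 51.2% of all genes (26.1% higher and 25.1% lower).

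**Figure D1:**
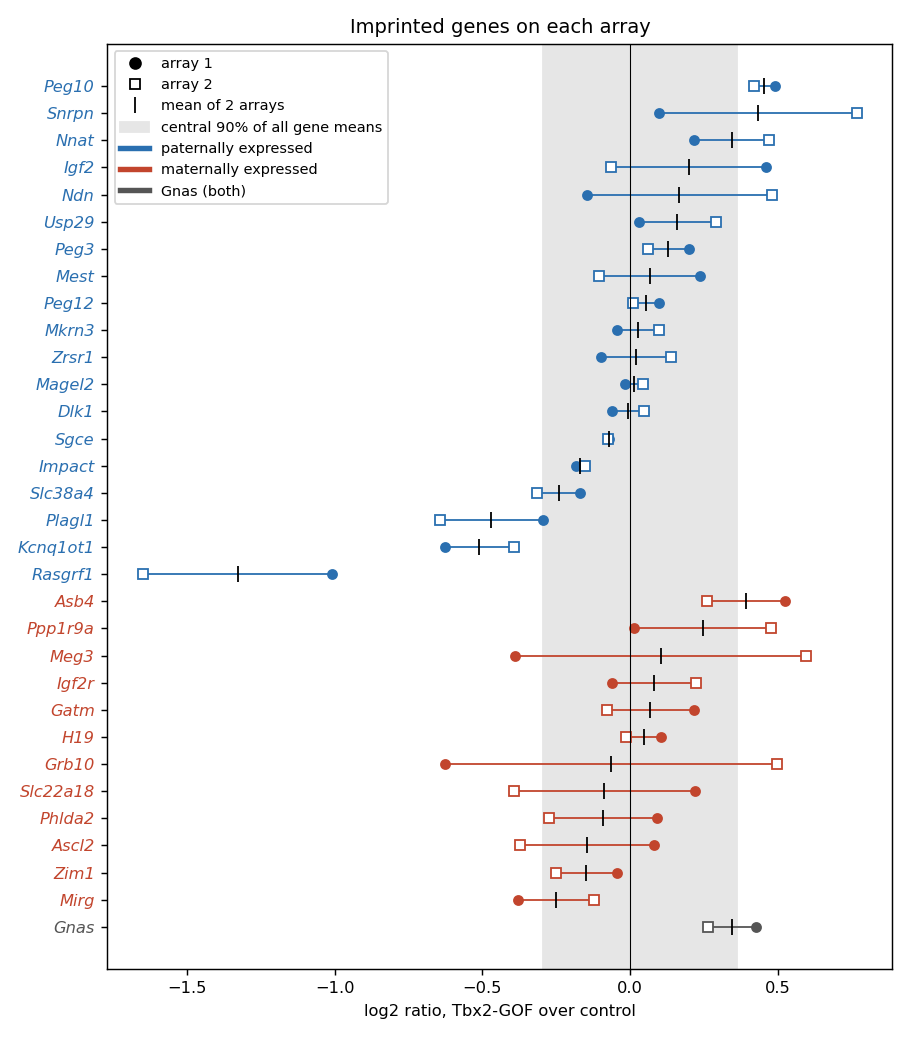
Log2 ratio of Tbx2-GOF over control for the brightest probe of each of the 32 imprinted genes (x axis), with filled circles for array 1, open squares for array 2, black ticks for their mean and a grey band for the central 90% of all gene means, -0.29 to 0.36. Rasgrf1, Kcnq1ot1 and Plagl1 lie below the band and Peg10, Snrpn and Asb4 above it, and many lines cross 0.

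The medians of the paternally and maternally expressed classes lay within 0.05 of 0 on both arrays. The median of the 19 paternally expressed genes was 0.03, with -0.05 on array 1 and 0.04 on array 2. Of these 1 fell, and 6 of 19 (31.6%) had an unadjusted p below 0.05 by limma, 3 higher and 3 lower. The median of the 12 maternally expressed genes was -0.01, with 0.05 on array 1 and -0.05 on array 2, and none passed limma's adjusted test; 1 of 12 (8.33%) had an unadjusted p below 0.05, beside 9.34% of all genes. The difference between these shares was not tested. The paternal median minus the maternal median was 0.03 over both arrays, but -0.09 on array 1 and 0.09 on array 2, so the arrays gave it opposite signs. No test was run on this difference. The paternal class ranged from -1.33 to 0.45 and the smaller maternal class from -0.25 to 0.39. Rasgrf1 alone set the paternal low end, and Kcnq1ot1 came next at -0.51. Of the paternally expressed genes 12 of 19 (63.2%) kept their sign between arrays, against 4 of 12 (33.3%) maternally expressed genes, beside 51.2% of all genes. Genes of a class share loci and are not replicates of it.

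**Figure D2:**
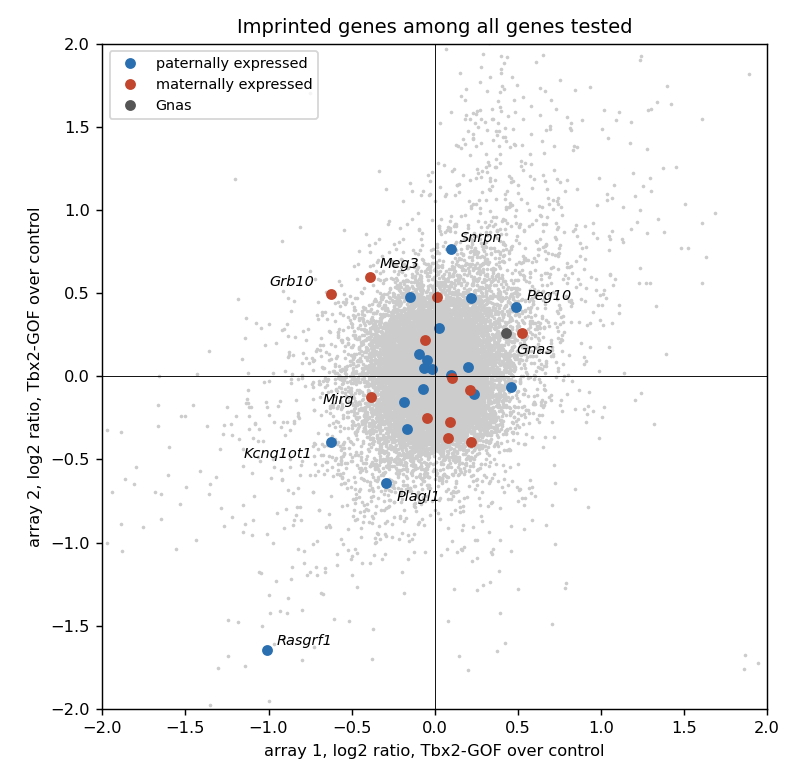
Log2 ratio of Tbx2-GOF over control on array 1 (x axis) and array 2 (y axis) for all 21097 genes tested (grey) and the 32 imprinted genes (coloured by parental class). 35 genes, none of them imprinted genes of the network, lie outside the square of 2 log2 units; Rasgrf1 is alone among the coloured points at the lower left, at -1.01 and -1.65, and Grb10 and Meg3 lie at the upper left, where the arrays disagree.

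Rasgrf1, a paternally expressed exchange factor that activates Ras, fell in Tbx2-GOF ureters. Its probe read -1.01 and -1.65 (mean -1.33 ± 0.45, or 2.51-fold lower, adjusted p = 0.0332 by limma). The normalized log2 intensity was 7.20 and 7.04 in Tbx2-GOF and 8.21 and 8.68 in control, so both control values lay above both Tbx2-GOF values. The signal was dim: the scanned intensity was 173 and 100 in Tbx2-GOF and 246 and 453 in control, though each was well above background by the software's flag. The probe is assigned to transcript NM_001039655 and lies at chr9:89810512-89810571 on mm9.

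The other Rasgrf1 probe, assigned to NM_011245, starts 101394 bases further along and was above background in control on array 1 alone. It read -0.44 and -0.11 and was not tested, so the call rests on a single dim spot per array. The adjusted p was above 0.05 with the software's processed signals (-2.24, adjusted p = 0.114), with median centring (-1.31, adjusted p = 0.452) and in the series value table (-2.24, adjusted p = 0.123), with a range from 0.00529 to 0.452 over all settings tested. The foetal liver markers had medians of -0.89 and -1.33, the muscle markers -1.88 and -0.86; their part in the Rasgrf1 value was not tested.

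**Figure D3:**
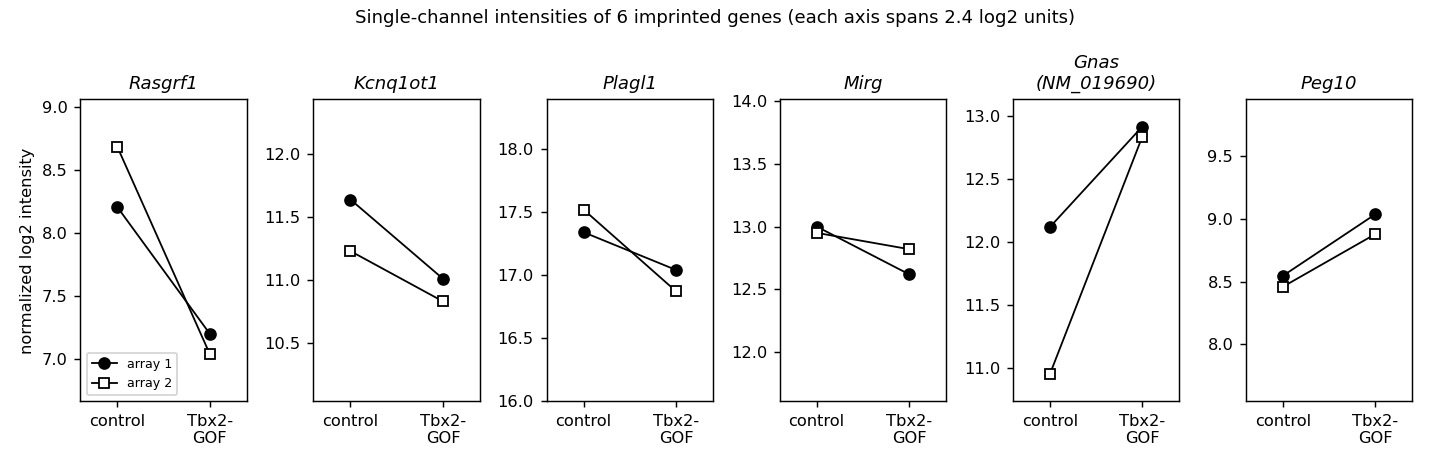
Normalized log2 intensity (y axis) of 1 probe each of 6 imprinted genes in control and Tbx2-GOF, joined within array 1 (filled circles) and array 2 (open squares), each axis spanning the same number of log2 units. Rasgrf1 shows the steepest fall, Kcnq1ot1, Plagl1 and Mirg slope down, Gnas at NM_019690 and Peg10 slope up, and the control values of Gnas differ between the arrays.

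Kcnq1ot1 was lower in Tbx2-GOF at both of its probes but did not pass the test. The bright probe read -0.63 and -0.39 (mean -0.51 ± 0.16, adjusted p = 0.195) and the dimmer one -0.92 and -0.30 (mean -0.61 ± 0.44), from starts 6120 bases apart on the RNA. The other 3 network members of its cluster, which this RNA is known to silence in cis, had opposite signs on the 2 arrays. Phlda2, a pleckstrin homology protein that limits placental growth, read 0.09 and -0.27. Ascl2, a basic helix-loop-helix factor of the trophoblast, read 0.08 and -0.37, and Slc22a18, an organic cation transporter, read 0.22 and -0.39. All 3 were higher on array 1 and lower on array 2, so on each array the red channel was the brighter, and none passed the test.

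The other imprinted genes listed for that cluster fell into those whose arrays were alike and those whose arrays differed. Cdkn1c, the cyclin-dependent kinase inhibitor of the cluster, read -0.03 and 0.09. Kcnq1, the potassium channel gene that hosts Kcnq1ot1 on the opposite strand, read 0.33 and 0.11. Osbpl5, an oxysterol-binding protein gene, read 0.12 and 0.07. Nap1l4, a histone chaperone gene, read -0.40 and 0.40. Tspan32, a tetraspanin gene, read 0.13 and -0.41, and Cd81, of the same family, 0.18 and -0.23. Tnfrsf23, a decoy receptor gene, read 0.16 and -0.27. Kcnq1 and Osbpl5 kept their sign between arrays, the other 5 did not, and none of the 7 passed the adjusted test or had an unadjusted p below 0.05.

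Plagl1, a zinc finger factor that restrains proliferation and is known to activate other imprinted genes, was lower at its bright probes. The brightest read -0.30 and -0.64 (mean -0.47 ± 0.25, adjusted p = 0.264) and the next -0.36 and -0.59, but these share a run of 26 bases and are not independent readings. The remaining 2 probes were dim, at -0.43 and -0.14 and at -0.40 and 0.12. All 4 means were below 0, and Plagl1 did not pass the test.

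In the growth factor axis itself, H19, Igf2, Igf2r and Grb10 each had opposite signs on the 2 arrays at the brightest probe. None of them passed the test. H19, the maternally expressed RNA beside Igf2, read 0.11 and -0.01 at its bright probe (mean 0.05 ± 0.08, 95% interval -0.26 to 0.35) and -0.16 and 0.14 at its dim one. Igf2 read 0.46 and -0.06 (mean 0.20 ± 0.37, interval -0.18 to 0.57), so its arrays disagreed in sign. Igf2r read -0.06 and 0.22 (mean 0.08 ± 0.20), as an average over 10 spots of its probe. Grb10 had the widest gap between arrays of the 32 genes, at -0.63 and 0.50 (mean -0.06 ± 0.79). The intervals are limma's for single genes under the main setting, without adjustment. Like the p-values, they cover only the spread of 2 arrays, with a variance partly borrowed from other genes. At the brightest probe of each of the 31 genes that did not pass the test, the interval lay within 2-fold of equality. That limit does not extend to their other probes: Gnas at NM_019690 had a mean of 1.35.

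Among 8 further genes of the IGF pathway, none passed the test by limma. Of them 1 (12.5%) had an unadjusted p below 0.05, beside 9.34% of all genes. Their median was 0.17, with 0.09 on array 1 and 0.22 on array 2. Igf1r, the signalling receptor for IGF1 and IGF2, read 0.28 and 0.38 (mean 0.33 ± 0.07, adjusted p = 0.462). The receptor substrates Irs2 and Irs1 read -0.03 and 0.64 and -0.25 and -0.20. Igf1 itself read 0.23 and -0.22.

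None of the 3 tested genes of the Dlk1-Meg3 cluster passed limma's adjusted test or had an unadjusted p below 0.05. Dlk1, a paternally expressed Notch-like membrane protein, read -0.06 and 0.05 at its bright probe and -0.35 and 0.25 at a probe starting 219 bases away. Meg3 read -0.39 and 0.60 at the bright probe printed above, with an adjusted p of 1.00, and 0.18 and 0.84 at the dimmer one. The bright probe thus had opposite signs on the arrays, and the dimmer one was higher on both. Mirg, a host RNA for microRNAs further along the cluster, read -0.38 and -0.12 at the bright probe (mean -0.25 ± 0.18, adjusted p = 0.710) and -0.37 and -0.48 at the dimmer one (mean -0.43 ± 0.08). Mirg was thus lower at both probes on both arrays. On array 1 the bright probes of Meg3 and Mirg gave nearly the same ratio, and on array 2 they had opposite signs; no test of that difference was run.

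**Figure D4:**
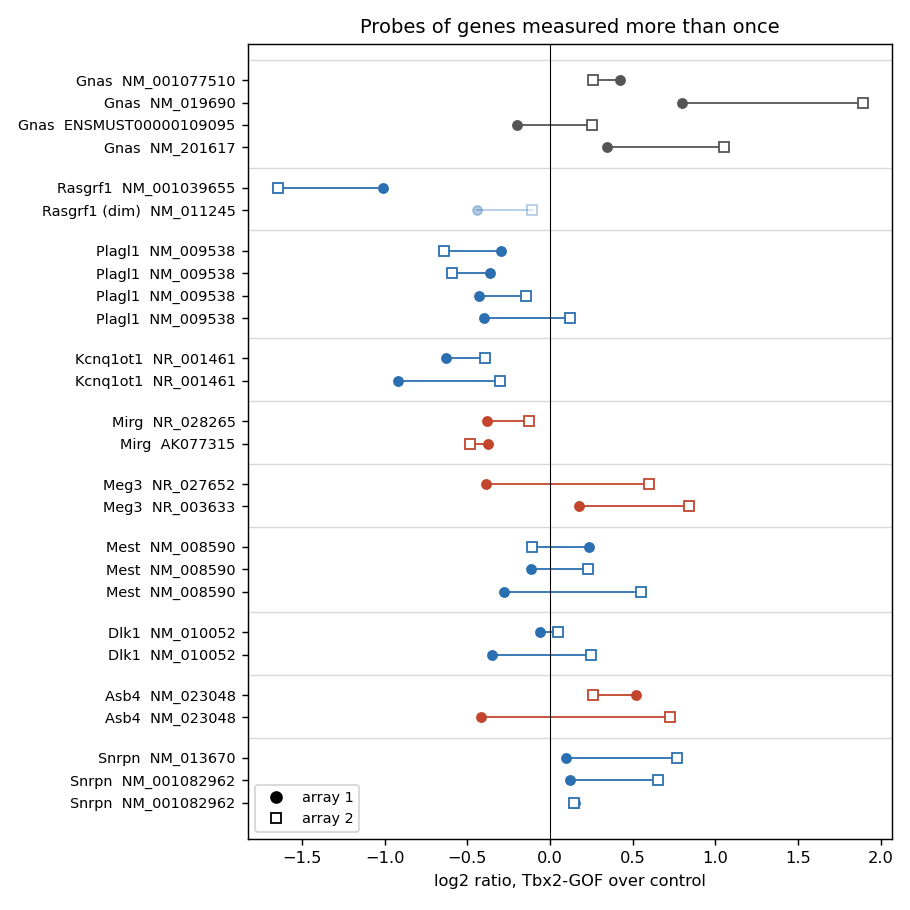
Log2 ratio of Tbx2-GOF over control (x axis) at probes of 10 imprinted genes with more than 1 probe, with the transcript to which the array design assigns it (y axis); filled circles are array 1, open squares array 2 and faded points a probe left out as dim. The 2 Kcnq1ot1 and the 2 Mirg probes lie below 0 on both arrays, the 2 Meg3 probes shown shift to the right on array 2, and the 4 Gnas probes spread from means of 0.03 to 1.35.

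A T-box binding sequence, AGGTGTGA on either strand, was searched for in RefSeq's promoter windows of GRCm38.p6, each of 300 bases around a transcript start and mostly before it. It was found in 419 of 32851 windows (1.28%). Of the 34 named genes 29 had a window, and of their 46 windows 1 (2.17%) held the sequence, the second listed start of Meg3. That window, chr12:109545148-109545447 on the plus strand, is printed because Tbx2 is the gene that was manipulated, with the match, which is the other strand of the motif, in capitals.
Meg3 second start: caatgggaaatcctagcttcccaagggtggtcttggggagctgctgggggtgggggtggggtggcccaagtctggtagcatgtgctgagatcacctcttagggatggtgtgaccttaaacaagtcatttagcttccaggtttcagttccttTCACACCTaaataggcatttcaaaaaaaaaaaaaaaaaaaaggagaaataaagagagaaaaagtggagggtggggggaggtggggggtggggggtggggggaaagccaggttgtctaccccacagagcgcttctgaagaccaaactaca
The match starts at base 152 of the window. It is a match of letters, and no binding was measured.

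The Peg10-Sgce cluster contained 4 tested genes, and each kept its sign on both arrays. Peg10, a retrotransposon-derived paternally expressed gene needed in the placenta, read 0.49 and 0.42 (mean 0.45 ± 0.05, or 1.37-fold, adjusted p = 0.228). Its other probe was not above background in control and was left out. Asb4, a maternally expressed ankyrin repeat and SOCS box protein, read 0.52 and 0.26 (mean 0.39 ± 0.19, adjusted p = 0.360), but -0.42 and 0.73 at its dim probe. Ppp1r9a, which encodes an actin-binding neurabin, read 0.01 and 0.48, and 0.22 and 0.32 at its dimmer probe. Sgce, the epsilon-sarcoglycan gene that shares a promoter region with Peg10, read -0.07 and -0.08. The paternally expressed pair of the cluster thus did not have the same sign. No gene of the cluster passed limma's adjusted test, and Peg10 and Asb4 had an unadjusted p below 0.05, beside 9.34% of all genes.

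The 5 paternally expressed genes of the Prader-Willi region had means above 0, from 0.01 to 0.43. Snrpn, a small nuclear ribonucleoprotein component of the splicing machinery, read 0.10 and 0.77 (mean 0.43 ± 0.47, adjusted p = 0.501), with 0.12 and 0.66 at its next probe and 0.15 and 0.14 at a dim one. Ndn, the MAGE family protein necdin, read -0.15 and 0.48. Magel2, of the same family, read -0.02 and 0.04. Mkrn3, a RING finger ubiquitin ligase, read -0.05 and 0.10, and 0.21 and 0.10 at its dimmer probe. Peg12, a Frat family gene, read 0.10 and 0.01, and -0.24 and 0.07 at its dim probe. The 5 genes had a median of 0.05 and none passed limma's adjusted test. Snrpn alone had an unadjusted p below 0.05, beside 9.34% of all genes. Snrpn, Ndn, Magel2 and Mkrn3 were each higher on array 2 than on array 1, and Peg12 was not. The neural and Schwann cell markers were also higher on array 2, with medians of 0.53 and 1.74. So were many other imprinted genes, such as Grb10, Meg3 and Igf2r. The part of neural and Schwann cells in the Snrpn and Ndn values was not tested.

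Gnas, the gene of the stimulatory G protein alpha subunit, was the locus whose probes differed most among themselves. The brightest probe, assigned to NM_001077510, read 0.43 and 0.26 (mean 0.34 ± 0.12, adjusted p = 0.438). The probe assigned to NM_019690, at chr2:174163501-174163560 on mm9 and 8432 bases before the brightest one, read 0.80 and 1.89 (mean 1.35 ± 0.77). When every kept probe was tested on its own, limma's adjusted p for it was 0.0757, just short of the threshold, beside 0.419% of probes called. Its normalized log2 intensity was 12.92 and 12.84 in Tbx2-GOF and 12.12 and 10.95 in control, so the control values were the ones farther apart between arrays. The probes further upstream read 0.35 and 1.05 at NM_201617 and -0.20 and 0.25 at ENSMUST00000109095. All Gnas probes but the brightest were higher on array 2 than on array 1. The neural markers were too, as were many other imprinted genes, and a relation was not tested.

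The Peg3 cluster gave small values of fixed sign at the brightest probes. Peg3, a paternally expressed zinc finger protein, read 0.20 and 0.06, and -0.14 and 0.47 at its dimmer probe. Usp29, a ubiquitin protease gene beside it, read 0.03 and 0.29. Zim1, a maternally expressed zinc finger gene of the same cluster, read -0.04 and -0.25 at the brighter probe and -0.17 and -0.12 at the other. The paternally expressed genes lay above 0 and the maternally expressed one below, and none passed the test.

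The remaining genes are each the only network member at their locus. Nnat, the membrane proteolipid neuronatin, read 0.22 and 0.47 (mean 0.34 ± 0.18, adjusted p = 0.468) and 0.28 and 0.36 at a probe 282 bases away. Slc38a4, an amino acid transporter gene, read -0.17 and -0.32, and Impact, a regulator of the translation kinase GCN2, read -0.18 and -0.15, but -0.35 and 0.09 at its dim probe. Neither gene passed the test. Mest, a hydrolase-fold protein of embryonic mesoderm, read 0.24 and -0.11 at its brightest probe, -0.12 and 0.23 at the next and -0.28 and 0.55 at the third. The 3 Mest probes thus disagreed in sign within each array. Gatm, an enzyme of creatine synthesis, read 0.21 and -0.08, and Zrsr1, a splicing factor gene, -0.10 and 0.14.

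Several probes per gene gave further readings of the same locus. Of the 17 imprinted genes with more than 1 kept probe, 2 (H19 and Peg12) had probe means of both signs, each within 0.09 of equality. Of the 32 genes, 15 had opposite signs on the arrays, and in 8 of these the green channel was the brighter on both arrays and in 7 the red. Over all genes 10294 had opposite signs, 5156 with green and 5138 with red the brighter.

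Of a list of 40 other imprinted genes, 36 were tested, none passed limma's adjusted test, and 4 had an unadjusted p below 0.05 (11.1%, beside 9.34% of all genes), 3 higher and 1 lower. On both arrays 91.7% of them were within 1.5-fold of equality, beside 92.1% of all genes, and their median was -0.02. Ddc, the DOPA decarboxylase gene beside Grb10, had the largest absolute mean, at 0.54 and 1.29 (mean 0.91 ± 0.53, adjusted p = 0.107). Ddc is also used by catecholamine cells, whose enzyme gene Th rose, at 0.94 and 1.74 (adjusted p = 0.0431); a relation between them was not tested. Klf14, a Krüppel-like factor gene near Mest, read -0.06 and -1.06, and Qpct, a glutaminyl cyclase gene, 0.47 and 0.34.

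The medians of several marker lists of other tissues lay farther from 0, in both directions. The skeletal muscle median was -1.88 on array 1 but -0.86 on array 2, with Mstn, Chrna1, Acta1 and Myh8 past the test. The foetal liver list had -0.89 and -1.33, with Afp, Alb, Serpina6, Ahsg and Ttr past it. Among neural and Schwann cell markers Th and Fabp7 rose, and among 7 adrenal cortex markers Akr1b7 and Mc2r rose while the list's median was 0.06. The erythroid list had -0.24 and -0.51 and the endothelial list 0.35 and 0.20, with none past limma's adjusted test. By limma's unadjusted p below 0.05, 5 of 8 (62.5%) and 3 of 6 (50%) stood out, beside 9.34% of all genes. Of the ureter's own lists, 0 of 8 mesenchymal markers passed the adjusted test, and 1 of 10 urothelial markers, Upk3a, fell. Of the mesenchymal markers 2 (25%) had an unadjusted p below 0.05 by limma, beside 9.34% of all genes. These were Aldh1a2, higher at 0.54 and 0.88, and Tbx18, lower as given above. Of the urothelial markers 4 (40%) had an unadjusted p below 0.05, 2 higher and 2 lower. Upk2 read 1.05 and 0.62 and Gata3 0.63 and 0.83, short of the adjusted threshold. How far these cell types contribute to the imprinted genes' values was not tested.

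**Figure D5:**
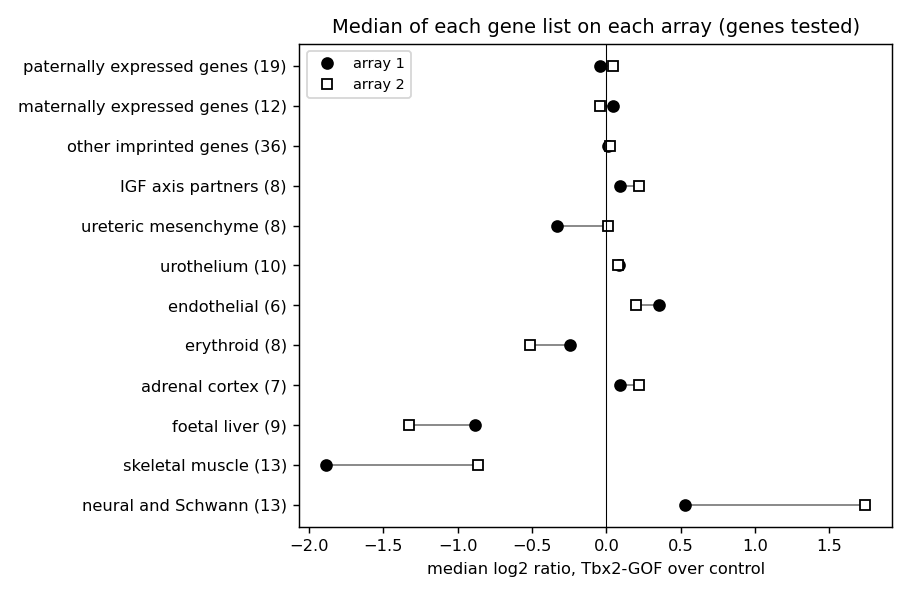
Median log2 ratio of Tbx2-GOF over control (x axis) of each gene list on array 1 (filled circles) and array 2 (open squares), with the number of genes tested in brackets. The parental classes lie within 0.05 of 0 on both arrays, while the skeletal muscle and foetal liver lists lie near or below -0.86 and the neural and Schwann list lies at 0.53 and 1.74.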

How the data were processed

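Two-colour arrays of Tbx2-GOF against control ureters, 2 in all with dyes swapped, were read, per the submitters' processing notes, with version 10.7.3.1 of Agilent Feature Extraction. The deposited scanner files give mean spot and background intensity values without normalization, the software's processed intensity and its log10 ratio of red over green, and other flags, per the file headers. The series value table that the authors deposited gives a linear fold ratio with a sign, Tbx2-GOF over control, its direction worked out by matching it to the software's log ratio. From the intensity values, log2 ratios were computed with limma 3.58.1 in R 4.3.3: normexp with an offset of 50, then loess within arrays with a span of 0.3, control and flagged spots at weight 0. A probe was kept where either genotype was well above background on both arrays. The brightest kept probe stood for a gene, and the other kept probes of imprinted genes are given beside it, apart from 1 Meg3 probe that is not reported here. Genes were tested with lmFit and eBayes, two-sided, adjusted over all 21097 genes. The fit was also run on simulated arrays drawn under its own assumptions. That run checks the code and cannot show whether the 2 real arrays are independent. No median or locus was tested. Median signals were 348 and 382 in green and 452 and 449 in red, and no probe was saturated; the number of arrays limits the precision.

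The imprinted genes, their parental classes and the other lists were chosen with earlier results of these data known. All imprinted genes are named; of other lists, genes past the test or else the 3 with the largest absolute mean, not all of them for marker lists. Igf1, Upk2, Gata3, Hprt and the 7 further genes of the Kcnq1ot1 cluster were named after their values were seen. Alternatives covered background correction, normalization, the dim filter, the choice of probe, the variance estimate, the value table, each array alone and stricter classes. No genome was used, so whether a probe lies in an exon or UTR is not stated.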

Additional observations from a re-analysis of the deposited data

How the results depend on the processing

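Across 12 alternative settings, 375 of 384 values of the 32 imprinted genes kept their direction and their side of the threshold. Part of that count was fixed beforehand. With either change of the dim filter, every probe tested, the other variance estimate or probes assigned by accession, each gene kept the same ratio. Its direction could not change there. The value table and the processed signals gave nearly the same ratios, so they are not separate checks. Rasgrf1 missed it in 3, as given above. Reversals concerned values near 0: Dlk1 at 0.00060 and Magel2 at -0.0027 with processed signals and the value table, H19 at -0.025 with median centring and Peg12 at -0.016 with the mean of its probes. With processed signals, median centring or the value table, limma called 0 genes in all and 0 imprinted genes, with 2055, 1219 and 2060 genes, and 7, 4 and 7 imprinted genes, at an unadjusted p below 0.05; the cause was not tested. The count over all genes was 313 with scaling between arrays, 276 without the dim filter and 211 with the mean of probes. The imprinted count stayed at 1, Rasgrf1, in those. On single arrays, which allow no test, the paternal median ranged from -0.046 to 0.042. Without genes imprinted mainly in extraembryonic tissues or differently between tissues, the maternal median was 0.064 and the class difference -0.02. Each ratio already pairs the genotypes on an array, and no further block was fitted.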
